A study of Mus musculus with 4 samples.

Results

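The 39 Hox genes of the mouse, in their 4 clusters, were taken from the protein-coding genes of the mm10 RefSeq gene table by symbol, as Hoxa, Hoxb, Hoxc or Hoxd followed by a number, out of 21887 protein-coding genes in all. The accessible sites examined were the distinct intervals of each peak list that lay between the first and last gene of a cluster, or at most 1 kb from an annotated Hox gene end (a gene-end interval). There were 8 such intervals of 21004 in the Znhit1 knockout list and 3 of 15376 in the control list.

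Accessible chromatin was mapped with ATAC-seq, where a transposase cuts open DNA and tags it for sequencing, in pachytene spermatocytes of mouse testis. The cells carried the genotype Znhit1_KO or, as the controls, CTRL, and every title bore the tag P35. The question put was what loss of ZNHIT1, which belongs to the SRCAP remodeller and helps to place the histone variant H2A.Z, does to accessibility. The labels name 2 libraries per genotype, and 1 peak list per genotype was analysed here. The sources used here give neither the alleles, any Cre driver, the strain and the treatment of the controls, nor whether a list came from 1 library or from pooled replicates. With 1 list per genotype, the spread between replicates is unknown, so differences between genotypes are descriptions without a p-value. The depth behind each list is unknown, and the knockout list was 1.37 times as long as the control list.

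Hox proteins are homeodomain transcription factors that give the embryonic head-to-tail axis its regional identity. Genes at one end of a cluster (low paralogue numbers) act in the hindbrain and neck, and genes at the other end (high numbers) act in the lumbar region, tail and distal limbs. In cells that do not use them, Hox clusters are typically coated by Polycomb complexes and the mark H3K27me3, whereas Trithorax-type methyltransferases keep them active where they are needed. In sperm and their precursors, promoters of such developmental genes are known for carrying H3K4me3 together with H3K27me3.

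Most Hox genes had no listed accessible site at either end in either genotype, and no Hox gene had one in both. A gene-end interval was present at 6 of 39 Hox genes in the knockout (15.4%, Wilson 95% interval 7.25 to 29.7) and at 1 of 39 in the control (2.56%, 0.454 to 13.2). The corresponding share of all protein-coding genes was 38.4% in the knockout and 33.2% in the control. Both Hox shares therefore lay below the background, and in each genotype the whole Hox interval lay below the share of all genes. All 6 knockout genes were found in the knockout list alone, so 15.4% of Hox genes (7.25 to 29.7) were in that class. The share of all genes in that class, 9.81%, lay within this interval. The control gene was found in the control list alone, 2.56% of Hox genes (0.454 to 13.2), and the share of all genes, 4.66%, lay within that interval too. Intervals in both lists marked 28.6% of all genes and 0 of 39 Hox genes (upper Wilson bound 8.97%). These intervals cover counting error only, and neighbouring Hox genes can share a site.

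The counts were small and depended on which intervals were kept. Among intervals that stood on 2 or more lines of a list, 1 Hox gene in the knockout and 0 in the control had a gene-end interval. The shares of all protein-coding genes under this filter were 23.6% in the knockout and 22.4% in the control. With equal numbers of the widest intervals in each list, the knockout count was 3 and the control count 1, beside 36.5% and 33.2% of all protein-coding genes.

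**Figure D1:**
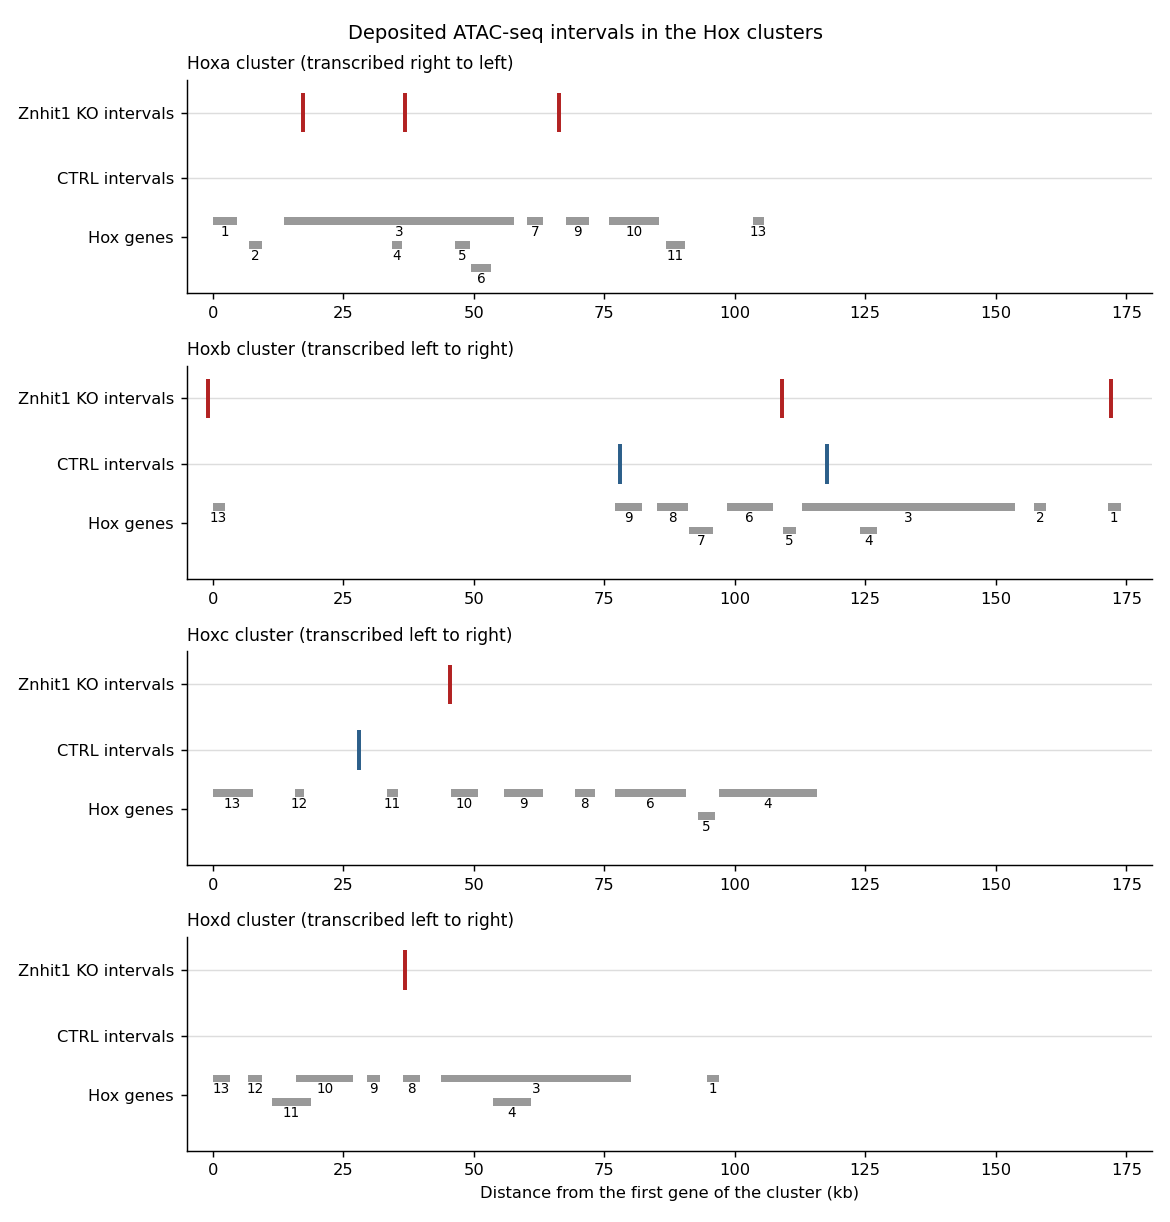
Position of every listed interval (vertical strokes at the interval centre, stroke width not to scale) along the 4 Hox clusters, in kb from the first gene of each cluster, with the Znhit1 knockout above the control and the Hox genes as grey bars labelled by paralogue number. The Hoxa and Hoxd clusters hold knockout strokes and no control stroke, and nowhere do strokes of the 2 genotypes stand at the same place.

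The widest and most often listed of the Hox sites lay at Hoxd8 (gene ID 15437), a trunk-level Hox gene. Its interval in the knockout list spanned chr2:74704846-74705474, 629 bp, and stood on 3 lines of the list. It began 231 bp inside the gene from the annotated start at 74704615. It was wider than 77.7% of knockout intervals, and it also lay inside the long non-coding RNA gene Gm38462. The nearest control interval was 126 kb away. The 250 bases just before the Hoxd8 start held 6 CpG dinucleotides and 44.4% G and C.

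Hoxb1 (gene ID 15407), which specifies the fourth rhombomere of the hindbrain, had a knockout interval of 418 bp at chr11:96366151-96366568, listed once. It lay inside the gene, 405 bp from the annotated start at 96365746. The nearest control interval was 54.0 kb away. The RefSeq promoter window of Hoxb1 held 1 match to the bipartite PBX-HOX motif, searched as TGATNNAT on both strands. Of 22 Hox genes with a promoter window 4 held this motif (18.2%), as did 8.72% of 17492 protein-coding genes.

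The upstream sequences of these 2 genes are shown because the knockout intervals lie just downstream of them, together with that of Hoxa13, the Hox window richest in CpG, which had no interval near it in either list and was chosen after its values were seen. Sequences are from RefSeq, build GRCm38.p6, read 5′ to 3′ on the transcribed strand, with CpG dinucleotides in capitals. The Hoxd8 stretch lies at chr2:74704365-74704614 on the plus strand, that of Hoxb1 at chr11:96365508-96365757 on the plus strand, and that of Hoxa13 at chr6:52260881-52261130 on the minus strand.
Hoxd8: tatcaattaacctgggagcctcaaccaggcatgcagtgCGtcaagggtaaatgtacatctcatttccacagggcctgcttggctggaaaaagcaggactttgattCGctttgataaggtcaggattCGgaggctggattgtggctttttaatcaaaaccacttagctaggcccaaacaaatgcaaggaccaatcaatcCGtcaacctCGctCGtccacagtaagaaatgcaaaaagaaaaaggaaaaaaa
Hoxb1: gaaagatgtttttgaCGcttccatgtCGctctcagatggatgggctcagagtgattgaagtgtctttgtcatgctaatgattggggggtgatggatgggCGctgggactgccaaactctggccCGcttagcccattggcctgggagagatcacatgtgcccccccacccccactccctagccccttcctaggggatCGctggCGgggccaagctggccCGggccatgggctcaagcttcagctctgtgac
Hoxa13: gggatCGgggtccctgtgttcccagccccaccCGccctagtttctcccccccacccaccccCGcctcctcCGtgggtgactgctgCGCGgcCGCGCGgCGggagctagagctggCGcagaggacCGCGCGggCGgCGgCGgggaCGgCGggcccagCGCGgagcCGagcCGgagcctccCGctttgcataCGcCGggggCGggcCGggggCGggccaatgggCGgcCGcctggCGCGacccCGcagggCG
The Hoxb1 stretch held 7 CpG dinucleotides and 59.2% G and C, and the Hoxa13 stretch 35 and 80.0%. The first base of the knockout interval lay 231 bases past the end of the Hoxd8 stretch and 393 bases past that of Hoxb1, so neither interval covered the sequence shown. The start used by the promoter table for Hoxb1 lies slightly inside the annotated gene.

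The other 4 knockout intervals at gene ends lay outside the gene they were nearest to. Hoxa4 (gene ID 15401), a gene of the neck and upper trunk, had one of 564 bp at chr6:52191886-52192449, which began 183 bp beyond the annotated gene end at 52191703. It lay inside the long annotated span of Hoxa3 and inside the non-coding gene LOC115490409. Hoxb5 (gene ID 15413), which takes part in neural crest development, had one of 160 bp at chr11:96303200-96303359, 153 bp before the annotated start at 96303512 and inside the antisense gene Hoxb5os. Only 0.814% of knockout intervals were narrower than the one at Hoxb5.

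Hoxc10 (gene ID 209448), active in the lumbar cord and hindlimb, had a knockout interval of 256 bp at chr15:102966468-102966723. Its edge lay 73 bp before the annotated start at 102966796, the shortest distance from any Hox gene end to an interval. Hoxb13 (gene ID 15408), a gene of the tail and the prostate, had one of 228 bp at chr11:96193231-96193458. That interval lay 858 bp before the annotated start at 96194316 and so just outside the cluster. Each of these 4 intervals was listed once.

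The only control interval at a Hox gene end lay at Hoxb9 (gene ID 15417), which patterns the thoracic ribs together with its paralogues. It spanned chr11:96272116-96272404, 289 bp, was listed once and lay inside the gene, 786 bp from the annotated start at 96271330. The nearest knockout interval was 30.8 kb away. With a window of 500 bp in place of 1 kb the control had no Hox gene with an interval, and the knockout had 5.

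All 7 gene-end intervals of the Hox genes, 6 in the knockout and 1 in the control, lay at the 5′ end of their gene. The promoter table gives a strand for 22 of the 39 Hox genes, and within each cluster these strands were the same, so the shared strand was used for the other 17. Genome-wide, the 5′ end was likewise the usual place. Among protein-coding genes with a strand and a gene-end interval, 95.6% of 6861 in the knockout and 96.0% of 5985 in the control had an interval within 1 kb of the 5′ end.

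A further 4 intervals lay inside the clusters but farther than 1 kb from any Hox gene end. In the knockout, a 162 bp interval at chr6:52172597-52172758 lay inside the annotated span of Hoxa3, a gene of the pharyngeal arches, 3.54 kb from its 3′ end and 123 bp from the non-coding gene Gm15050. A 338 bp interval at chr6:52221627-52221964 lay between Hoxa7 and Hoxa9, 1.13 kb beyond the 3′ end of Hoxa9, a gene also known from blood stem cells. In the control, a 489 bp interval at chr11:96311658-96312146 lay inside the annotated span of Hoxb3, a hindbrain gene, 4.56 kb from its 5′ end. It stood on 2 lines, and it was the only control interval in a Hox cluster listed more than once. A 315 bp control interval at chr15:102948963-102949277 lay between Hotair and Hoxc11, 5.25 kb before Hoxc11 and 1017 bp from Hotair, a long non-coding RNA studied for its link to Polycomb.

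No Hox interval of the knockout overlapped a control interval, and none of the control overlapped a knockout interval. Over the whole lists, 32.4% of knockout intervals and 44.4% of control intervals shared 1 bp or more with the other list. The closest approach in any cluster was 8.30 kb, between the knockout interval at Hoxb5 and the control interval inside Hoxb3. The 8 knockout intervals had a median width of 297 bp (160 to 629 bp), against 352 bp for the whole knockout list. The 3 control intervals were 289, 315 and 489 bp wide, against a median of 427 bp for the whole control list. On more than 1 line stood 1 of the 8 knockout intervals and 1 of the 3 control intervals, against 29% and 39.1% of the whole lists.

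The 4 clusters differed in where the listed sites fell. The Hoxa cluster (chr6:52155367-52260880, 11 genes) held 3 intervals in the knockout and 0 in the control. The Hoxb cluster (chr11:96194316-96368254, 10 genes) held 2 in the knockout and 2 in the control, beside the knockout interval just outside Hoxb13. The Hoxc cluster (chr15:102921131-103036856, 9 genes) held 1 in each. The Hoxd cluster (chr2:74668225-74765142, 9 genes) held 1 in the knockout and 0 in the control. In the control list the Hoxa cluster sat inside a stretch of 493 kb with no interval, and the Hoxd cluster inside one of 1080 kb. Long empty stretches were common in that list, since 52.2% and 35.6% of the autosomal bases between intervals lay in longer ones.

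By axial level, 1 of 8 anterior genes (paralogue groups 1 to 3), 3 of 15 central genes (groups 4 to 8) and 2 of 16 posterior genes (groups 9 to 13) had a gene-end interval in the knockout. In the control the numbers were 0, 0 and 1. At these counts no order between axial levels can be read.

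Per base, the clusters were not poor in accessible sites, although they were poor in them per gene. The clusters span 492 kb and held 14.2 intervals per Mb in the knockout (exact Poisson 95% interval 5.72 to 29.3, 7 intervals) and 6.10 per Mb in the control (1.26 to 17.8, 3 intervals). The autosomes held 8.47 per Mb in the knockout and 6.19 per Mb in the control, and both lay within the intervals of the clusters. Flanks of each cluster's own length on both sides held 13.2 per Mb in the knockout (7.03 to 22.6) and 5.08 per Mb in the control (1.65 to 11.9). The clusters hold 79.3 protein-coding genes per Mb and the autosomes 8.40. This left 0.179 intervals per coding gene in the clusters in the knockout and 0.0769 in the control, against 1.01 and 0.738 over the autosomes. Intervals covered 2527 bp of the clusters in the knockout (0.514%) and, in the control, 1093 bp (0.222%). Of the autosomes they covered 0.386% in the knockout and 0.316% in the control.

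Distances from a Hox gene end to the nearest interval varied widely between clusters. In the knockout they ran from 73 bp at Hoxc10 to 57.5 kb at Hoxd1, with a median of 10.3 kb over the 39 genes. In the control they ran from 786 bp at Hoxb9 to 245 kb at Hoxa13, with a median of 89.1 kb. Over all protein-coding genes the medians were 5.80 kb in the knockout and 11.6 kb in the control. The genotypes stood farthest apart in the Hoxa cluster (medians of 9.23 kb in the knockout and 192 kb in the control) and the Hoxd cluster (16.5 kb and 119 kb), while the Hoxb cluster (7.94 kb and 8.54 kb) and the Hoxc cluster (23.3 kb and 27.8 kb) had medians closer together. Genes of a cluster share the same few intervals, so these distances are not independent of each other. In the Hoxa and Hoxd clusters they rest on 3 knockout intervals and on 1.

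**Figure D2:**
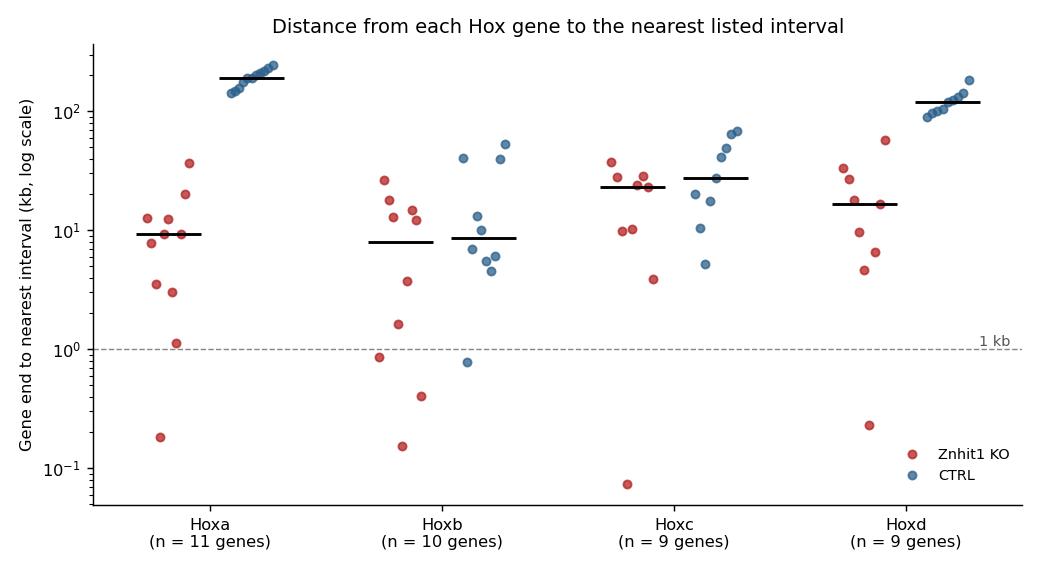
Distance in kb (log scale) from the nearer end of each Hox gene to the nearest listed interval, by cluster, with the Znhit1 knockout left of the control, one point per gene, a black line at the median and a dashed line at 1 kb. Knockout points below the dashed line are Hoxa4, Hoxb1, Hoxb5, Hoxb13, Hoxc10 and Hoxd8, and the only control point below it is Hoxb9.

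The promoter sequence sets the low Hox share in context, because CpG-rich promoters usually had a listed site in these cells. A RefSeq promoter window of 300 bases, 250 before and 50 after the start, was present for 22 of the 39 Hox genes. These windows held between 4 (Hoxa9 and Hoxd4) and 45 (Hoxa13) CpG dinucleotides, with a median of 17.5, against a median of 15 over 17492 protein-coding genes. Of the 11 Hox genes at or above the Hox median, 0 had a gene-end interval in the knockout and 0 in the control. Of 7583 other protein-coding genes with as many CpG dinucleotides, the share was 66.0% in the knockout, against 59.0% in the control. The 11 Hox genes are Hoxd13 and Hoxa13, which pattern the digits, Hoxd1, Hoxd3, Hoxd9, Hoxd10 and Hoxd11, and Hoxa3, Hoxa5, Hoxa6 and Hoxa10. All lie in the Hoxa and Hoxd clusters, which held 0 control intervals, so the control count of 0 follows from that. Genes of a cluster also share the same few intervals, so the 11 are not separate observations. In the Hoxb and Hoxc clusters only Hoxb1, Hoxb4, Hoxb8 and Hoxc4 had a window. The 2 Hox genes with a window and a knockout interval were CpG-poor by comparison, Hoxd8 with 6 and Hoxb1 with 10. The 17 Hox genes without a window included the other 4 knockout genes and the control gene, so their promoters could not be counted here.

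**Figure D3:**
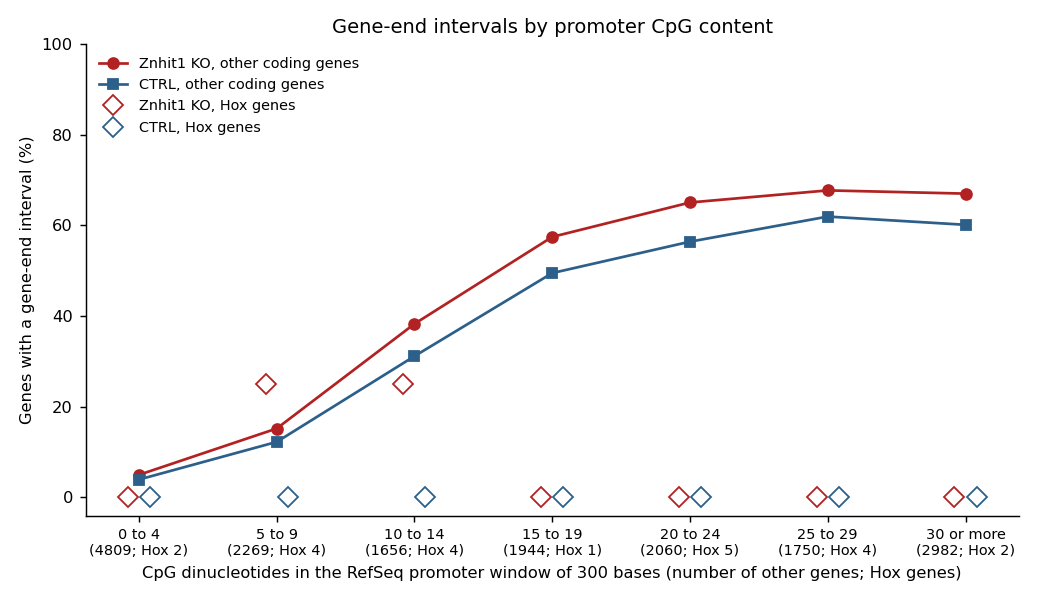
Percentage of genes with a gene-end interval by the number of CpG dinucleotides in the 300-base RefSeq promoter window, for other protein-coding genes (filled symbols with lines) and Hox genes (open diamonds), in the Znhit1 knockout and the control. Other genes reach 67.0% in the knockout and 60.1% in the control at 30 or more CpG dinucleotides, while the Hox diamonds stand at 0 from 15 upwards. The Hox genes from 15 upwards all lie in the Hoxa and Hoxd clusters.

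Non-coding genes also lie inside the clusters. Of the 32 in the table, 25 are long non-coding RNAs, 6 are miRNAs and 1 is a pseudogene. An interval overlapped 4 of them in the knockout (LOC115490409, Hoxb5os, Gm30528 and Gm38462) and 0 in the control, and the share over all non-coding genes was not computed. The interval in Gm30528 lay beyond Hoxc4, outside the cluster bounds. No interval lay within 1 kb of Hotairm1 or Haglr in either list.

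The 6 miRNA genes belong to 3 families, of which miR-10 and miR-196 are kept at matching places in several clusters and act on Hox and other transcripts. Their main mature forms are shown with the seed (bases 2 to 8) in capitals, because 2 seeds recur across the clusters.
mmu-miR-10a-5p (Mir10a, Hoxb cluster): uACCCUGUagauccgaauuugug
mmu-miR-10b-5p (Mir10b, Hoxd cluster): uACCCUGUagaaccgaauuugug
mmu-miR-196a-5p (Mir196a-1 and Mir196a-2, Hoxb and Hoxc clusters): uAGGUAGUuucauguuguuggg
mmu-miR-196b-5p (Mir196b, Hoxa cluster): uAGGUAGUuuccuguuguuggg
mmu-miR-615-3p (Mir615, Hoxc cluster): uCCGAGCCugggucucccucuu
None of the 6 had an interval within 1 kb in either list. The nearest ones lay between 6.63 kb (Mir196a-2) and 37.9 kb (Mir196a-1) away in the knockout, and between 5.02 kb (Mir10a) and 217 kb (Mir196b) away in the control.

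Other homeobox regulators also had few sites and none in both genotypes. Of 52 genes of other homeobox families, among them Dlx, Nkx, Emx, Msx, Barhl, Irx and Otx, 3 had a gene-end interval in the knockout (5.77%, 1.98 to 15.6) and 1 in the control (1.92%, 0.340 to 10.1). These were Otx1 (971 bp), Nkx6-1 (675 bp) and Barhl1 (238 bp) in the knockout alone and Barhl2 (545 bp) in the control alone, and none was in both. Of the 6 ParaHox and caudal genes, which descend from the same ancestral cluster as Hox, only Gsx1 had one, of 452 bp in the knockout. The confidence intervals of both sets overlapped those of the Hox genes in each genotype.

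Among Fox, Sox, Pax, Tbx, Lhx and Gata genes, which are also developmental regulators, some had sites in both genotypes. Of these 99 genes, 17 had a gene-end interval in the knockout (17.2%, 11.0 to 25.8) and 16 in the control (16.2%, 10.2 to 24.7). Both shares lay below those of all protein-coding genes, 38.4% and 33.2%. In both lists were 10 (10.1%), against 0 of 39 Hox genes and 28.6% of all protein-coding genes. In the knockout alone were 7, with Sox12 (561 bp), Foxj2 (558 bp), Foxo1 (480 bp) and Foxo6 (473 bp) the widest, and in the control alone were 6, with Lhx8 (488 bp), Foxc1 (436 bp), Sox3 (416 bp) and Sox6 (400 bp) the widest. The 10 in both included Foxn2 (1324 bp in the knockout, against 760 bp in controls), Sox30, a regulator of spermatid genes (1155 and 1325 bp), Foxk2 (1076 and 706 bp) and Foxo3 (667 and 985 bp). The upper bound of the Hox share in both lists, 8.97%, lay above the lower bound of 5.58% for these genes, and the difference was not tested.

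**Figure D4:**
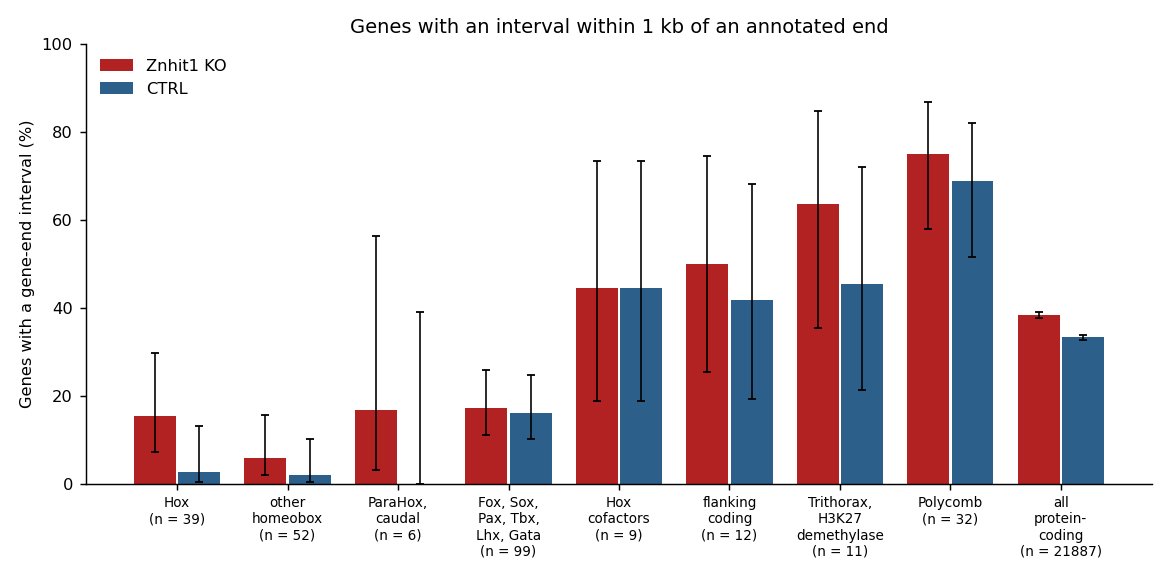
Percentage of genes with a gene-end interval in each gene list, with the Znhit1 knockout bar left of the control bar and Wilson 95% intervals for counting error. The Hox, other homeobox and ParaHox bars stand below those of all protein-coding genes in both genotypes, and the Polycomb bars above them.

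Most genes for Polycomb proteins, which silence the Hox clusters in many tissues, had accessible ends in both genotypes. Of the 32 Polycomb genes, 24 had a gene-end interval in the knockout (75%, 57.9 to 86.7) and 22 in the control (68.8%, 51.4 to 82.0), with 19 in both (59.4%, 42.3 to 74.5). The shares of all protein-coding genes were lower, at 38.4%, 33.2% and 28.6%. Among genes with promoter CpG at least the Hox median the shares were 66.0%, 59.0% and 53.9%, within the Polycomb intervals. The promoter CpG of the Polycomb genes was not compared. The widest sites among these 19 were at Jarid2, a PRC2 cofactor (1643 bp in the knockout, against 740 bp in controls), Ezh2, its methyltransferase (762 and 1643 bp), Pcgf1 (904 and 1358 bp) and Eed, its H3K27me3-binding subunit (1276 and 1085 bp). In the knockout alone were 5, with Phc1 (1054 bp), Yaf2 (741 bp), Aebp2 (598 bp) and Cbx2 (448 bp) the widest. In the control alone were Pcgf5 (946 bp), Ring1 (392 bp) and Cbx6 (378 bp).

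Of the 11 Trithorax and H3K27 demethylase genes, 7 had a gene-end interval in the knockout (63.6%, 35.4 to 84.8) and 5 in the control (45.5%, 21.3 to 72.0). The shares of all protein-coding genes, 38.4% and 33.2%, lay within these intervals. In both lists were 4, Kmt2c (1263 and 968 bp), Rbbp5 (363 and 802 bp), Men1 (673 and 367 bp) and Ash2l (541 and 316 bp). Kmt2b (564 bp), Kmt2a (503 bp), whose product maintains Hox expression, and Kmt2d (399 bp) had one in the knockout alone, and Wdr5 (1212 bp) had one in the control alone. The H3K27 demethylase genes Kdm6a and Kdm6b had none in either list, nor did Dpy30. Among genes for TALE homeodomain cofactors, which bind DNA with Hox proteins, Pknox1 (1370 bp in the knockout, against 831 bp in controls), Pbx3 (1083 and 1106 bp) and Pbx4 (709 and 458 bp) were in both lists. Pknox2 (224 bp) was in the knockout alone, and Meis1, Meis2, Meis3 and Pbx2 had none.

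Some coding genes around the clusters, picked by name without a distance rule, had sites in both genotypes. Of 12 such genes, 6 had a gene-end interval in the knockout (50%, 25.4 to 74.6) and 5 in the control (41.7%, 19.3 to 68.0). The shares of all protein-coding genes, 38.4% and 33.2%, lay within these intervals. Cbx5 (1707 bp in the knockout, against 1193 bp in controls), Lnpk (1056 and 859 bp), Skap2 (709 and 978 bp), Calcoco1 (775 and 576 bp) and Hibadh (498 and 580 bp) had one in both, and Mtx2 (709 bp) in the knockout alone. Evx1 and Evx2, homeobox genes at the edge of the Hoxa and Hoxd clusters, had none in either list, and neither did Skap1, Snx10, Smug1 and Ttll6. Flanks of the cluster's own length held 0 coding genes at Hoxc, so Cbx5 and Calcoco1 lie farther out. At Hoxa the flanks held 0 intervals in either list, so the sites at Skap2 and Hibadh also lie farther out. The Hoxb flanks held 7 coding genes, with 7 intervals in the knockout and 4 in the control. Only Skap1 and Ttll6 were listed for that cluster.

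Most pachytene spermatocyte markers had sites in both genotypes. Of 10 such markers, 9 had a gene-end interval in both the knockout and the control (90%, 59.6 to 98.2), among them Sycp3 and Mybl1. The share of all genes in both lists was 28.6%. Markers of somatic testis cells had few sites. Of 8 Sertoli cell markers, 2 had a gene-end interval in the knockout (Dhh, 847 bp, and Amhr2, 416 bp) and 0 in the control, with Sox9, Wt1 and Amh at none in both. Of 9 markers for immune, endothelial, peritubular and Leydig cells, the knockout list marked Acta2 (313 bp) and the control list 0. The knockout shares of these 2 sets, 25% (7.15 to 59.1) and 11.1% (1.99 to 43.5), could not be told apart from the 38.4% of all genes. The control upper bounds, 32.4% and 29.9%, lay just below the 33.2% of all genes. The part of such cells in the knockout-only Hox intervals was not tested.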

How the data were processed

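ATAC-seq libraries of pachytene spermatocytes were made from Znhit1 knockout and control testis, with over 30 M reads each per the labels. The authors deposited peak lists of 3 columns (chromosome, start, end; unit bp) with no height, fold, p-value or summit, and 1 list per genotype was used here. The submitters' processing notes name MACS2 2.2.4, Picard 2.20.7, Bowtie2 2.3.4.3, cutadapt 2.5 and build mm10. The sources used here do not give their settings, the peak threshold, any Tn5 shift, duplicate filters or pooling of replicates.

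The 29656 knockout and 24167 control lines were reduced to distinct intervals, and starts were made 1-based. Genes came from the RefSeq table for GRCm38.p6, the assembly that mm10 names. It has no exons, introns or UTRs, so none are given. Strands and sequences came from RefSeq promoter and miRNA tables. An interval was shared at 1 bp of overlap. All 97 entries of the gene lists matched the table. Shares carry Wilson 95% intervals and counts exact Poisson 95% intervals, for counting error only. The interval counting was checked on simulated positions and against bedtools 2.31.1, and the work used Python 3.11.15, pandas 2.3.3 and scipy 1.17.1.

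Named genes followed a rule: every Hox gene with a gene-end interval, every interval inside a cluster, and in each comparison list the members found in 1 list alone (the 4 widest where there were more) with up to 4 of the widest in both. Exceptions are the pachytene and somatic markers, the flanking genes beyond 4, some members with no interval in either list, and Hoxa13. The members and lists were chosen with earlier results of these data known. Alternatives covered the window, interval width, lines per interval, merging, overlap and cluster bounds. A background limited to CpG-rich promoters was added after seeing the data. Some members of the comparison lists are not reported here by name.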

Additional observations from a re-analysis of the deposited data

How the results depend on the processing

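The Hox counts stayed low under every alternative run, but their size depended on which intervals were kept. No knockout Hox interval overlapped a control interval in any run. The runs could not have changed this, because the closest pair lay 8.30 kb apart and the largest gap counted as shared was 500 bp. The knockout count of 6 Hox genes, all in the knockout alone, became 3 among intervals of at least 300 bp, 1 among intervals on 2 or more lines and 3 with the same number of widest intervals per list. The control count of 1, in the control alone, became 0 at 300 bp, 0 on 2 or more lines and 0 with a 500 bp window. Intervals inside the clusters, 7 in the knockout and 3 in the control, became 4 in the knockout at 300 bp, 4 with the same number of widest, and 1 in the knockout and 1 in the control on 2 or more lines, where 629 bp and 489 bp were covered. The share of all protein-coding genes fell to 23.6% in the knockout and 15.9% in both lists on 2 or more lines. Among genes with promoter CpG at least the Hox median, a setting chosen after seeing the data, it was 66.0% in the knockout, 59.0% in the control and 53.9% in both. The cause of these shifts was not tested. The other 74 values moved by at most 1.5 times, among them the control count inside the clusters, which was 2 at 300 bp. No paired analysis was possible because each genotype had 1 peak list, and leaving out a replicate was not possible for the same reason. Without heights or depth, a site missing from a list may have fallen below the peak threshold.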
